A study of Mus musculus with 18 samples.

Results

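The E-box bHLH transcription factor genes other than those of the clock itself were examined for BMAL1 binding in mouse liver, kidney and heart. The 10 genes were Usf1, Usf2, Mitf, Tfeb, Srebf1, Srebf2, Mlxipl, Max, Myc and Mxd4, chosen by name out of 21887 protein-coding genes. A peak was assigned to a gene when the peak's centre lay inside the gene or within 10 kb of either gene end, on the mouse build GRCm38 (mm10). By that rule 17 peaks in 12 distinct regions lay at 7 of the 10 genes, out of 9005 regions in all. Chromatin immunoprecipitation with sequencing (ChIP-seq) had been done on wild type C57BL/6 mice of 3 to 6 months, fed freely, entrained to a cycle of 12 h light and 12 h dark, and sampled at ZT06, which is 6 h after lights on. For each of liver, kidney and heart there were 3 ChIP libraries, made with a chicken antibody against the N-terminal domain of BMAL1, and 3 input libraries of chromatin without precipitation, and the 3 tissues came from the same animals. The authors pooled all libraries of a tissue into 1 peak list, so no value below carries an error between animals, and the depth behind each list is not known. For the 3 heart inputs, 1 label (the source name) says kidney while the title and the tissue say heart; which is right was not tested, and it bears on every heart value. No RNA was measured in these samples, so the tissue labels were not checked against marker genes.

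BMAL1 and its partner CLOCK belong to the bHLH-PAS proteins and bind the E-box, a short DNA element with the general form CANNTG and the canonical form CACGTG. The proteins encoded by these 10 genes have a bHLH leucine zipper instead and recognise the same canonical element or close relatives of it. USF1 and USF2 are ubiquitous activators, MITF and TFEB drive melanocyte and lysosomal genes, SREBP1 and SREBP2 control fatty acid and cholesterol synthesis, ChREBP (the product of Mlxipl) answers to glucose, and MYC and MXD4 compete for the common partner MAX. The peaks described here are those of BMAL1 at the genes that encode these factors; where the factors themselves bind was not measured.

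Promoter sequence was available as windows of 300 bases, from 250 bases before to 50 bases after a listed transcription start (RefSeq, GRCm38.p6). The 10 genes had 16 such windows at 8 genes, and Usf2 and Myc had none. Of these windows, 4 overlapped a peak by at least 1 bp, and they are shown because they join binding to sequence. Each runs 5′ to 3′ along its gene. Capitals mark every CANNTG, in which N is any base.
Mlxipl, upstream start, chr5:135089640-135089939, plus strand: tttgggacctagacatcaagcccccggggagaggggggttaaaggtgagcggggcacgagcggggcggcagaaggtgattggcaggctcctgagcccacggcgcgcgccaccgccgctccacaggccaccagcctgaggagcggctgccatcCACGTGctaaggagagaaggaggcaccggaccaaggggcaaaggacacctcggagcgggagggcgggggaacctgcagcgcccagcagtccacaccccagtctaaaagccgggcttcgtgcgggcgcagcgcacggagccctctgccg
Mxd4, chr5:34187661-34187960, minus strand: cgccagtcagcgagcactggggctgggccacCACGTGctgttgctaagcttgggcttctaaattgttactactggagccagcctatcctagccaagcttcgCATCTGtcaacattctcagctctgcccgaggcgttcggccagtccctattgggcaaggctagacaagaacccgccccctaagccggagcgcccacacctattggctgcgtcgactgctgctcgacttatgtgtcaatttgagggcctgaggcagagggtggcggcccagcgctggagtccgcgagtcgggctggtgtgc
Max, chr12:76962199-76962498, minus strand: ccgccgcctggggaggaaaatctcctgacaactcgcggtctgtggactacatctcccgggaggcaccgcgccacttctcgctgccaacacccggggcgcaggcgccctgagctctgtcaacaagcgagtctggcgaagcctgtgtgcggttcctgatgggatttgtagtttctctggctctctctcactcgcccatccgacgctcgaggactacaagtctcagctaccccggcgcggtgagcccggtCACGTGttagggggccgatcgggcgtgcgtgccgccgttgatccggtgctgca
Srebf1, downstream start, chr11:60210422-60210721, minus strand: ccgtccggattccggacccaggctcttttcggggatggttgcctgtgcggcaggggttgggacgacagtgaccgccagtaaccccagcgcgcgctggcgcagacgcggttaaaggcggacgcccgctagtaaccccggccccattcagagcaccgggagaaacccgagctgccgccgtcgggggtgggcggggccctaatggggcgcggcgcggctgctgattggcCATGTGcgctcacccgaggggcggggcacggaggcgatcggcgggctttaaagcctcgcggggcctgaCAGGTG
The first 3 each hold 1 canonical CACGTG. The Srebf1 window has 2 other matches and no canonical element.

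BMAL1 peaks lay at Mitf, Mlxipl, Srebf1 and Usf2 in liver, at Max, Mlxipl, Mxd4 and Usf2 in kidney, and at Mlxipl, Tfeb and Usf2 in heart. Those are 4, 4 and 3 of the 10 genes. Over all protein-coding genes, 18.1% had a liver peak, 18% a kidney peak and 11.5% a heart peak by the same rule. A peak of any tissue lay at 7 of the 10 genes against 30.7% of all protein-coding genes. Peaks of all 3 tissues lay at Mlxipl and Usf2, against 4.35% of protein-coding genes. Usf2 alone had a region in which the peaks of all 3 tissues overlapped, against 3.09%. With 10 genes, 1 gene more or less moves a share by 10 percentage points, and the list was chosen with earlier results of these data known, so these counts are a description and no test was made.

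**Figure D1:**
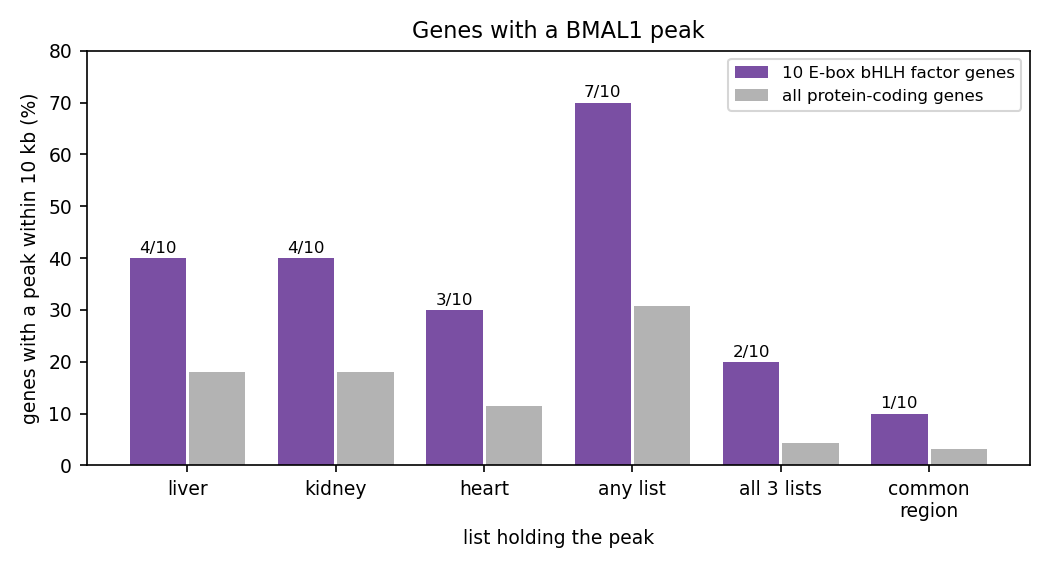
Share of genes with a BMAL1 peak inside the gene or within 10 kb (y axis, %) for the 10 factor genes (purple, with counts) and all 21887 protein-coding genes (grey), by peak list (x axis). The purple bars are higher in each of the 6 classes, from 7 of 10 against 30.7% for any list to 1 of 10 against 3.09% for a region common to all 3 lists; there are no replicates and hence no error bars.

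Long genes catch more peaks under such a rule. With protein-coding genes in 4 equal groups by length, 14.9% of the shortest had a peak of any tissue, and the shares in the next groups were 28.4%, 34.4% and 44.9%. Of the 10 factor genes, 1 fell in the shortest group (Myc, without a peak), 3 in the next (2 with a peak), 2 in the third (both with a peak) and 4 in the longest (3 with a peak).

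The score that the authors gave each peak has no stated scale, so it was used for ranks within a list only. It ran from 28 to 95 over the 7 liver peaks at these genes (median 64, against 40 for the whole list of 4813 peaks). For the 7 kidney peaks the range was 27 to 53 (median 42, against 28 for 4034 peaks), and for the 3 heart peaks it was 30 to 61 (median 39, against 25 for 2519 peaks). In the upper 50% of their list by score were 6 of the 7 liver peaks, 6 of the 7 in kidney and all 3 in heart. None of the 17 was in the upper 10%, the nearest being the liver peak inside Mlxipl at 10.6%. The 2 in the lower 50% were the liver peak at Mitf (70.2%) and a kidney peak at Max (50.7%). In whole-tissue chromatin, binding in fewer cells and weaker binding per cell cannot be told apart in such a score.

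**Figure D2:**
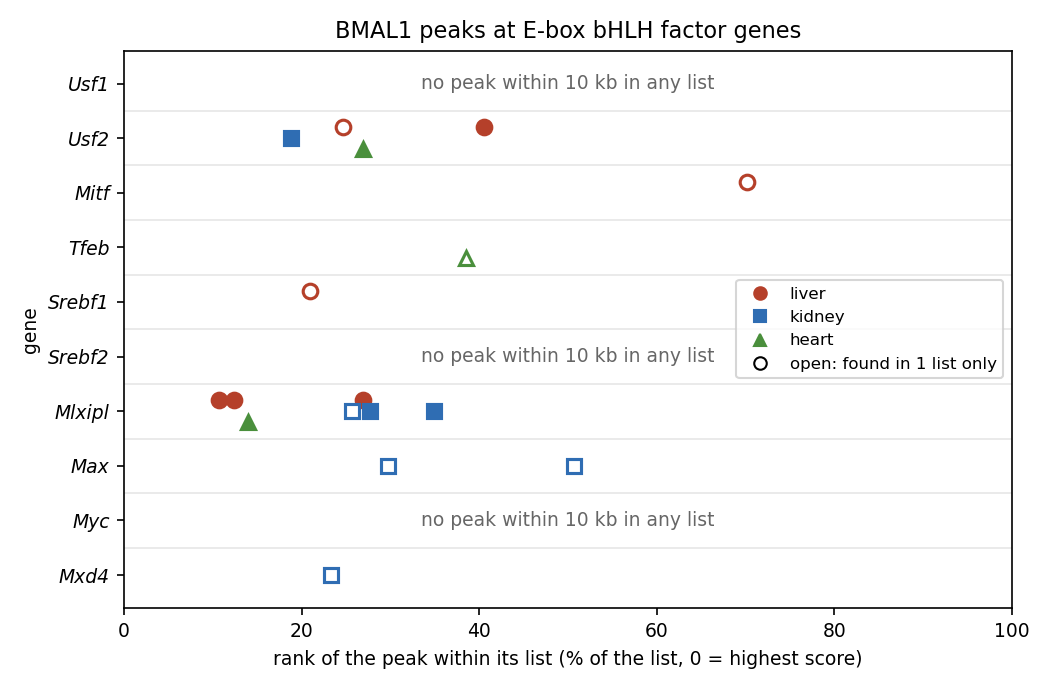
Rank of every peak at the 10 genes within its own list (x axis, % of the list, with 0 as the highest score), 1 row per gene; circles are liver, squares kidney and triangles heart, and open symbols are peaks found in 1 list only. All symbols lie between 10.6% and 70.2%, the Mlxipl and Usf2 rows alone hold filled symbols, and Usf1, Srebf2 and Myc have no peak.

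Most regions were found in 1 tissue. Of the 12 regions, 8 (66.7%) were found in 1 tissue, 3 (25%) in 2 tissues and 1 (8.33%) in all 3, while over all 9005 regions the shares were 79.5%, 14.7% and 5.76%. Liver held 3 of the single-tissue regions, kidney 4 and heart 1. Of the 12 regions, 7 lay inside one of the genes. Exons and introns were not told apart, since gene spans and listed starts alone were used.

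**Figure D3:**
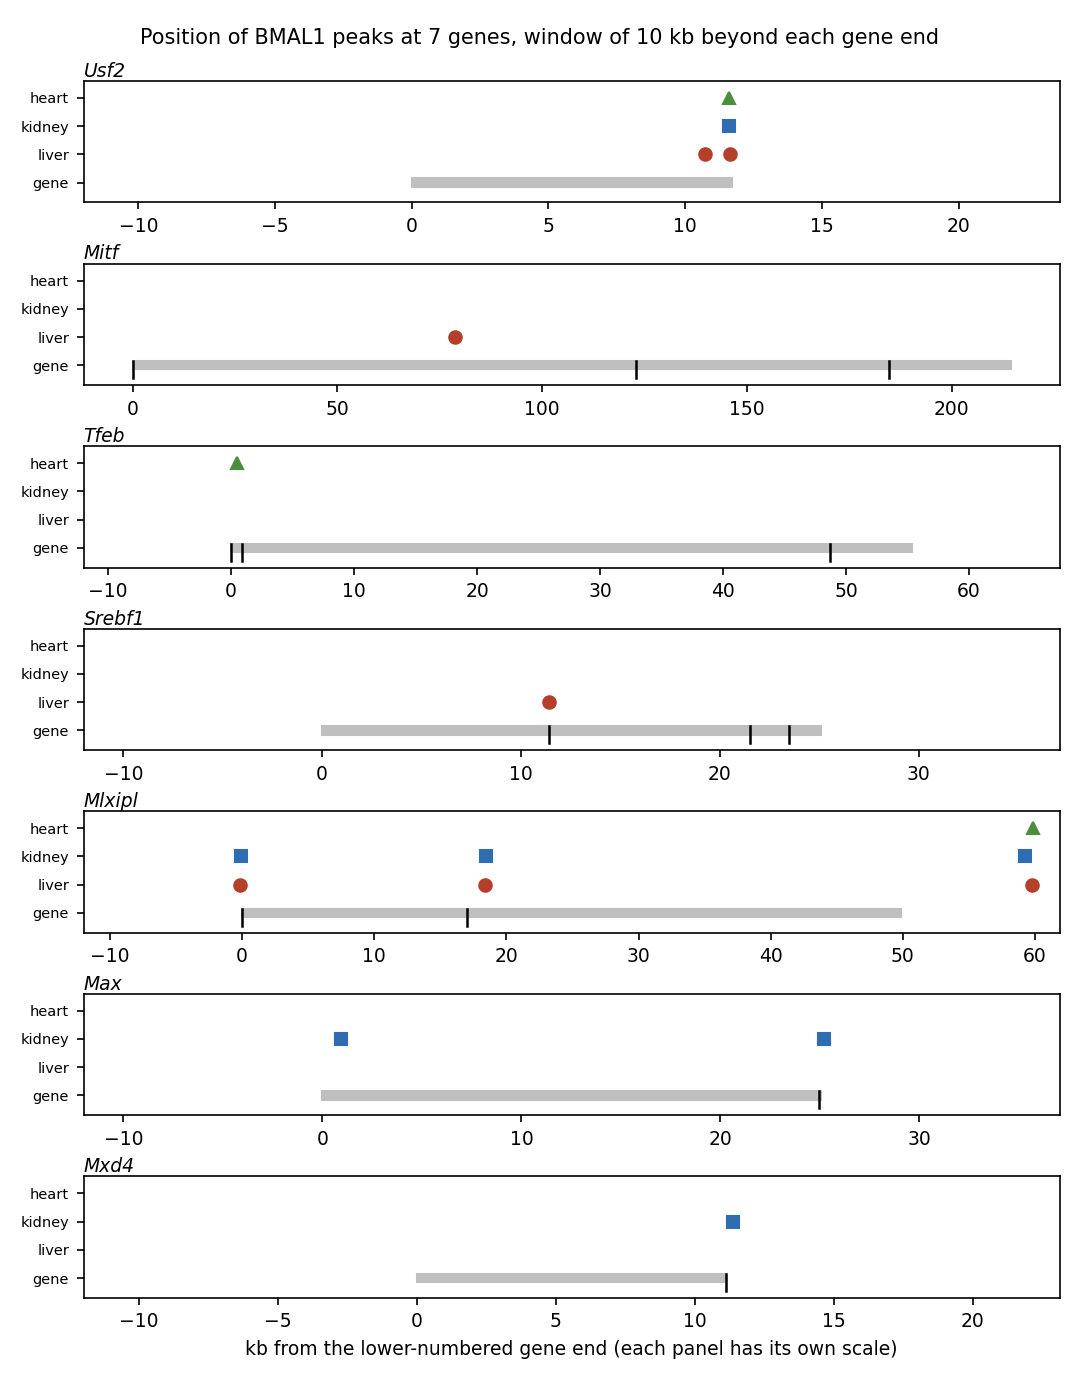
Position of the peaks at the 7 genes with peaks (x axis, kb from the lower-numbered gene end, with a different scale in each panel); grey bars are gene spans, black ticks listed transcription starts, and each coloured symbol is a peak centre in its list. Liver and kidney symbols coincide at the upstream start and inside Mlxipl, symbols of all 3 lists coincide at one end of Usf2, and the remaining genes have peaks of 1 list.

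Under the 10 kb rule the glucose-responsive factor came first in number of sites, but only through sites next to Tbl2, described below. Mlxipl (chr5:135089890-135139768) had 4 regions, with 3 liver, 3 kidney and 1 heart peak. Usf2 and Max had 2 regions each, and without the sites next to Tbl2 Mlxipl did not exceed them. At its upstream start the liver peak (chr5:135089642-135089883) scored 61 and ranked 1293 of 4813, and the kidney peak (chr5:135089715-135089902) scored 42 and ranked 1119 of 4034. Both lists thus placed this site at a like rank, at 26.9% and 27.7% of the list. The centres lay 128 and 82 bp before the start, and no heart peak was found there. The single CACGTG of that window, at chr5:135089792-135089797, was inside both peaks, 32 bp from the liver centre and 14 bp from the kidney centre.

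A second liver and kidney region lay inside Mlxipl, 1392 and 1418 bp past the downstream listed start. The liver peak (chr5:135108162-135108403) scored 95 and ranked 512 of 4813, and the kidney peak (chr5:135108216-135108403) scored 36 and ranked 1408 of 4034. Here the lists differed in order, with the liver peak at 10.6% of its list and the kidney peak at 34.9%. The window at the downstream start itself, chr5:135106641-135106940, overlapped no peak and held 2 other CANNTG matches but no CACGTG.

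The last 2 Mlxipl regions lay beyond the other gene end, next to Tbl2. A kidney peak (chr5:135149039-135149226) scored 44 and ranked 1037 of 4034, 9364 bp from Mlxipl and 296 bp from Tbl2. A liver peak (chr5:135149535-135149776, score 89, rank 596 of 4813) and an overlapping heart peak (chr5:135149611-135149808, score 61, rank 352 of 2519) were centred inside Tbl2, 9888 and 9942 bp from Mlxipl. The kidney peak and the liver and heart pair were separated by a gap of 308 bp, so kidney and the other tissues had neighbouring but not overlapping sites. The liver and heart peaks covered 201 and 125 of the 300 bases of the Tbl2 promoter window, which held no CACGTG. Tbl2 is the nearest protein-coding gene to all 3 of these peaks, and Mlxipl has a heart peak under the rule only through them. With a window of 5 kb, or with each peak given to its nearest protein-coding gene alone, Usf2 was the 1 gene of the 10 with peaks of all 3 tissues.

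The SREBP genes had fewer regions than Mlxipl, Usf2 or Max. Srebf1 (chr11:60199084-60224186) had 1 peak, in liver, at chr11:60210376-60210617, with a score of 70 and rank 1008 of 4813 (20.9%). It lay on the most downstream of the 3 listed starts, with its centre 26 bp before it, and covered 196 of the 300 bases of that window. The CATGTG of the window lay 4 bp from the peak centre. Srebf1 is known to give rise to SREBP-1a and SREBP-1c from separate starts, but the sequence table does not name the transcript of each start. No kidney or heart peak was found at the gene. Among liver peaks within 5 percentage points of the same rank, 42.3% were found in liver alone, so a liver-only peak of this rank was not unusual. The nearest peaks of kidney and heart lay 22882 and 22894 bp away inside Rai1, in 1 region shared by both, with rank 124 of 2519 in heart and 1588 of 4034 in kidney.

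Srebf2 (chr15:82147269-82205379), which encodes the factor for cholesterol synthesis, had no peak under the rule. The nearest was a liver-only peak 19456 bp away (chr15:82127693-82127934, score 95, rank 512 of 4813), whose nearest protein-coding gene is Ccdc134. The nearest kidney and heart peaks were more distant still, at 148898 and 148872 bp, in a region common to all 3 tissues inside Ndufa6.

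Of the USF pair, Usf2 had peaks and Usf1 had none. Usf2 (chr7:30945248-30956951) carried the only region of the list common to all tissues, at one end of the gene. The liver peak (chr7:30956754-30956995) scored 46 and ranked 1953 of 4813. The kidney peak (chr7:30956770-30956957) scored 53 and ranked 758 of 4034. The heart peak (chr7:30956766-30956963) scored 39 and ranked 679 of 2519. These ranks correspond to 40.6%, 18.8% and 27.0% of the lists, and the 3 centres lay within 11 bp of each other, 76 to 88 bp inside the gene end. By mean rank this was number 428 of the 519 regions common to all tissues, so most common regions ranked higher. The common regions with the nearest set of ranks, by Euclidean distance over the 3 percentages, lay at Shld2 (5.34 points away) and Nxpe3 (5.36 points away).

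A further liver peak inside Usf2 (chr7:30955848-30956089) scored 64 and ranked 1185 of 4813, above the liver peak of the common region, and was found in liver only. Its edge lay 664 bp from the common region. Among liver peaks of about that rank 48.5% were liver-only. Usf1 (chr1:171411307-171418954) had no peak under the rule. The nearest lay at 65672 bp in kidney, 88654 bp in heart and 526232 bp in liver. Neither of its 2 promoter windows held CACGTG.

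The lysosomal and melanocyte factors had 1 peak each. Tfeb (chr17:47737037-47792416) had a heart-only peak (chr17:47737453-47737650) with a score of 30 and rank 970 of 2519 (38.5%). Its centre fell between the first 2 listed starts, 380 bp before the nearer one, and it overlapped neither window. Mitf (chr6:97807002-98021360) had a liver-only peak inside the gene (chr6:97885688-97885929) with a score of 28 and rank 3377 of 4813 (70.2%), the lowest rank of the 17. It lay 44008 bp from the nearest listed start. Among liver peaks of about that rank 86.7% were found in liver alone, and among heart peaks of about the Tfeb rank 61.2% were heart-only.

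Of Max, Mxd4 and Myc, the first 2 had peaks, in kidney only. Max (chr12:76937269-76962323), the partner required by MYC and by the MXD proteins, had 2 kidney-only peaks. The peak at its start (chr12:76962399-76962586) scored 40 and ranked 1198 of 4034, with its centre 244 bp before the start. The other (chr12:76938122-76938309), inside the gene near its far end, scored 27 and ranked 2045 of 4034. The CACGTG of the Max window lay on the start itself and outside the peak, 244 bp from the peak centre. Among kidney peaks of about the rank of the peak at the start 47.7% were kidney-only, and of about the rank of the other 66.4%.

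Mxd4 (chr5:34176580-34187710), a MAX partner that acts against MYC, had 1 kidney-only peak (chr5:34187856-34188043) with a score of 47 and rank 938 of 4034 (23.3%). It was centred 240 bp before the start. The CACGTG of the Mxd4 window lay inside this peak, 23 bp from its centre. Among kidney peaks of about this rank 38.5% were kidney-only. Myc (chr15:61985341-61990361) had no peak under the rule. The nearest were a liver peak and an overlapping heart peak 47580 and 47662 bp away, the heart peak centred inside Pvt1. In kidney the nearest peak lay 510748 bp away.

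Around the 10 kb limit, the outermost peaks counted lay at 9364, 9888 and 9942 bp, all next to Tbl2. Beyond it, only the nearest peak of each tissue to each gene was measured. The closest of those lay at 16024 bp from Max (a heart peak inside Fntb), 19456 bp from Srebf2 and 22882 bp from Srebf1. A further peak of a tissue already counted at a gene could lie closer.

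Promoter sequence was set against the whole genome. Of 32851 promoter windows, 6.34% overlapped a peak of any tissue, 3.19% a liver, 4.14% a kidney and 2.12% a heart peak, against 4 of 16 windows at these genes. CACGTG, which reads the same on both strands, was found in 7.15% of all windows. Among windows without a peak it was found in 5.52% (exact Clopper-Pearson 95% interval 5.26 to 5.78%). In windows with a liver peak it was found in 38.5% (35.6 to 41.6%), with a kidney peak in 35.8% (33.3 to 38.4%) and with a heart peak in 34.4% (30.9 to 38.1%). At the 10 genes it was found in 3 of 16 windows, those of Max, Mlxipl and Mxd4, each of which overlapped a peak. None of the 12 windows without a peak held CACGTG. In the Max window the element lay outside the peak, 244 bp from the peak centre. Genes with several starts give several windows, and a window can overlap peaks of more than 1 list, so windows are not independent.

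**Figure D4:**
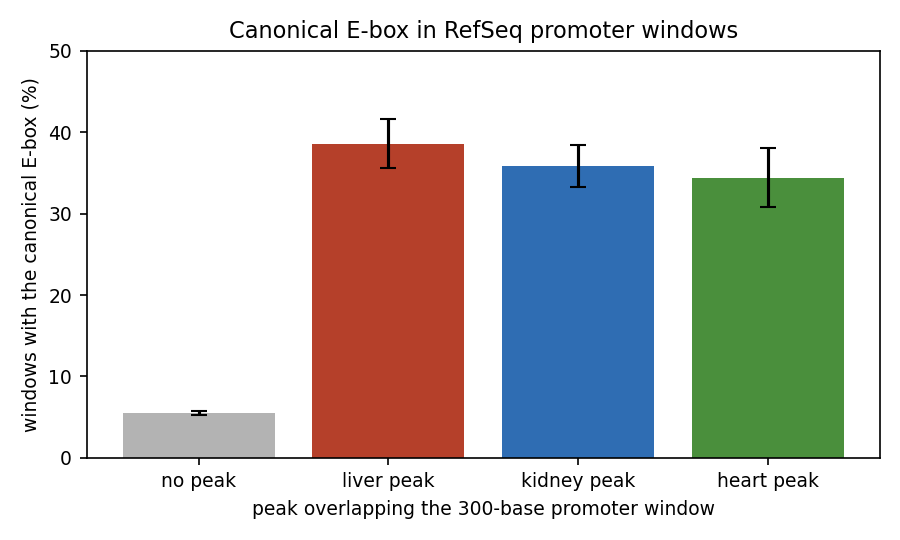
Share of 300-base RefSeq promoter windows with CACGTG (y axis, %), for windows without a peak and windows overlapping a liver, kidney or heart peak (x axis); bars are shares and lines exact 95% intervals for counting error only. The share is 5.52% without a peak and between 34.4% and 38.5% with one.

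A form with 1 changed base, CACGTT, searched on both strands, was found in 4.68% of all windows and in 8.84% of windows with a peak of any tissue. At these genes it occurred once, in the window of Mitf at the upstream start, away from any peak. The general form CANNTG, which includes CACGTG, was found in 72.3% of all windows, in 70.8% of those with a peak and in 11 of 16 at these genes. The canonical form was commoner close to peak centres than in the middle of windows without a peak. Among peaks whose central 100 bases lay within a window, CACGTG stood in those bases in 38.3% of 525 cases for liver, 34.0% of 732 for kidney and 35.5% of 341 for heart. It stood in the middle 100 bases of 1.87% of windows without a peak. The comparison is not like for like. Peak centres fall anywhere in a window and were counted by peak, while the middle is a fixed place counted by window. The liver and kidney peaks at the upstream Mlxipl start had CACGTG in their central bases, and the liver peaks at Srebf1 and at Tbl2 did not. A match is a description of the letters and not evidence that a protein bound them.

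Related genes gave a wider view. The 28 genes were other members of the MYC, MAX and MLX network, other MiT/TFE factors, regulators of SREBP and further HLH factors, and 18 of them had a peak of any tissue under the rule, against 30.7% of protein-coding genes. A liver peak lay at 14 of the 28 against 18.1% of protein-coding genes, a kidney peak at 14 against 18%, and a heart peak at 9 against 11.5%. A region common to all tissues was found at 4 of the 28, against 3.09%: Mnt, Insig1, Hes1 and Hey1. In the MYC, MAX and MLX network 5 of 9 genes had a peak, among them Mnt, which encodes a MAX-binding repressor. Its 2 common regions ranked higher in each list than any site at the 10 genes. In one, 1304 to 1316 bp past the start, the ranks were 308 of 4813 in liver, 250 of 4034 in kidney and 172 of 2519 in heart. Ranks in the other, 7732 to 7746 bp past the start, were 388, 191 and 93. The other 4 genes of this network had no peak.

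Of the SREBP regulators 3 of 5 had a peak, against 30.7% of protein-coding genes. Insig1, whose product holds SREBP in the endoplasmic reticulum, had a common region centred 272 to 294 bp before its start, with rank 103 of 4813 in liver, 352 of 4034 in kidney and 104 of 2519 in heart. The peaks of this region were centred outside Insig1 and inside another gene, Gm35223. Neither of the 2 other MiT/TFE genes had a peak. Of the other HLH factors 10 of 12 had one, against the same 30.7%, and gene length was not taken into account. Some counted only through peaks in the lower part of a list. The only peaks of Heyl and Tcf12, both in heart, lay at 55.8% and 87.9% of the list. Those of Tcf4, in liver and kidney, lay at 54.5% to 96.9%. Hes1, a repressor downstream of Notch, had 2 common regions, the better of which ranked 73 in liver, 198 in kidney and 124 in heart. Hey1, of the same class, had one at ranks 2202, 2045 and 328. Its 3 peaks were centred 280 to 396 bp outside Hey1 and inside another protein-coding gene, LOC115489673.

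**Figure D5:**
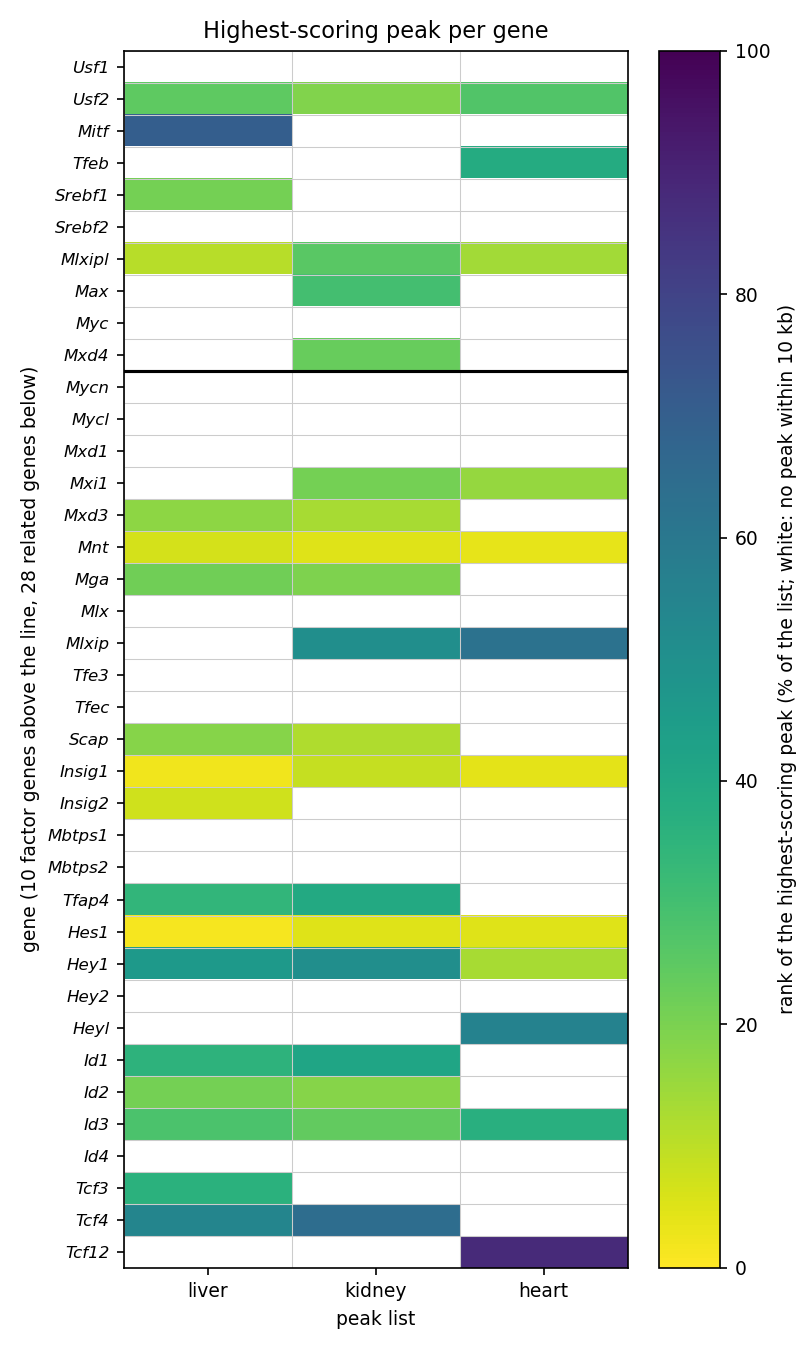
Rank of the highest-scoring peak within 10 kb of each gene (colour, % of the list, yellow for the highest scores), by peak list (x axis) for the 10 factor genes above the line and 28 related genes below it (y axis); white means no peak. Mnt, Insig1 and Hes1 are in the upper 10% of all 3 lists, and none of the 10 factor genes is in the upper 10% of any list.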

How the data were processed

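Per the labels, 18 libraries were made (3 ChIP and 3 input for each of 3 tissues), from chromatin fixed with 1% formaldehyde, 10 ng of DNA and 16 PCR cycles, read at 75 bp. Per the series' design text, the authors called 1 peak list per tissue on its pooled ChIP and input replicates. The submitters' processing notes name Bowtie2, SAMtools and HOMER without a role, and the build mm10. The authors deposited a whole-number score per peak, of unstated scale and threshold. A pooled list from deeper or better enriched libraries can hold more weak peaks, so absence from a list also depends on its sensitivity.

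Gene spans came from RefSeq GRCm38.p6, in which all 10 genes and all 28 related genes matched by symbol. Ranks within a list gave tied scores the best rank. Peaks overlapping by at least 1 bp were merged into regions. Coordinates count from 1. Promoter motifs were searched on both strands; 1843 of 1843 overlapping windows of opposite strand were reverse complements. The assignment, merging and motif steps were checked on simulated data. Python 3.11.15 was used, with pandas 2.3.3 and scipy 1.17.1. No test was made: the lists hold no replicates.

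All 10 genes were named, with the related genes that had a common region and the 2 common regions nearest in rank to the members' own. Genes holding a site, or nearest to it among protein-coding genes, were named too. Some further related genes were chosen for mention after their values were seen. The members and lists were chosen with earlier results of these data known. The alternatives varied the window, the peak threshold and the sharing rule.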

Additional observations from a re-analysis of the deposited data

How the results depend on the processing

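Of 55 recomputed values, 46 stayed within 1.5 times the value reported, or, for the share of common regions, within its exact 95% interval. That interval ran from 0.211 to 38.5%, so the share could hardly leave it. Among the small counts, a heart count of 2 genes in place of 3 also passed. The number that stayed is therefore a weak measure of stability. With 50 kb beyond either gene end, 7 genes had a liver peak, 6 had a heart peak, and there were 19 regions. Counting only peaks inside a gene left 7 regions. Peaks of all 3 tissues lay at 1 gene, Usf2, with windows of 5 kb and 2 kb, inside genes only, and when only peaks with the member as nearest protein-coding gene counted, a setting chosen after seeing the data. Joining peaks with centres within 1000 bp gave 2 genes with a common region, Mlxipl and Usf2, since it joins the neighbouring sites next to Tbl2. No paired analysis was possible because the authors pooled the replicates of a tissue before calling peaks; for the same reason no replicate could be left out. Read depth is unknown, so a missing peak is a site not called rather than a site shown to be unbound.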

Other observations

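Several other related genes had peaks on or near a listed start; they were chosen for mention after their values were seen. Insig2, a second gene for an SREBP-retaining protein, had a liver-only peak centred 28 bp before a start, with a score of 111 and rank 352 of 4813. Scap, which encodes the SREBP escort protein, had a liver and kidney region 24 and 26 bp past a start, with rank 865 of 4813 in liver and 487 of 4034 in kidney. Mxd3, a relative of Mxd4, had a liver and kidney region 262 bp before its start, with rank 821 in liver and 528 in kidney. Mxi1, another gene of that family, had a kidney and heart region centred 22 and 32 bp before a start, with rank 838 in kidney and 394 in heart. Among the genes of this family, the peak at the Mxd4 start was in the kidney list, the region at the Mxd3 start in the liver and kidney lists and the region at the Mxi1 start in the kidney and heart lists, and Mxd1 had no peak. Mxi1 also had a heart-only peak (rank 537 of 2519) and a kidney-only peak (rank 3802 of 4034) away from that start. Further liver-only peaks ranked 3576 to 3702 of 4813 at Scap and 4212 at Insig2.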
